A study of Mus musculus with 20 samples.

Results

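Cngb3 and Cnga3 are the genes of the modulatory and the principal subunit of the cyclic nucleotide-gated cation channel of cone photoreceptors. They were followed across 20 RNA-seq libraries of mouse ovary, as 2 of the 20960 genes in the table. Cngb3 was chosen from its measured values, namely its near absence in the Model libraries and its high counts in both particle groups. Cnga3 was added for contrast as its channel partner, with earlier results of these data known. The values of Cngb3 against Model and Control are therefore given as a description, with no test.

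The channel opens when cyclic GMP binds to its cytoplasmic end, and it lets sodium and calcium into the cone outer segment. The Cnga3 protein can form a working channel by itself, whereas the Cngb3 protein needs an A subunit beside it. In people, loss of either gene causes achromatopsia, a lack of cone vision. Cnga1 and Cngb1 encode the rod channel, and Cnga2 and Cnga4, with Cngb1, encode the channel of olfactory neurons.

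Each group had 5 libraries. Control ovaries carried no treatment label. The Model, LNPIFN-Y and ptLNPIFN-Y groups were all labelled ovarian cancer, the last 2 with the particle treatment of that name. The series text describes C57BL/6 mice whose ovarian bursa was expanded with a peptide-targeted lipid nanoparticle carrying mRNA for the subunits of follicle-stimulating hormone and then injected with ID8Luci cells, a luciferase-marked mouse ovarian cancer line. It describes a peptide-targeted particle with interferon-γ mRNA, injected into the peritoneal cavity every 3 days from day 62 to day 95 after the expansion, with an endpoint at day 97. The LNPIFN-Y group is given by its label alone, and no group with an empty particle was among these samples. It is not stated whether each library is a different mouse, so p values measure the spread between these libraries, which may be technical. The ages of the mice were not given in the sources used here.

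Depth was even, at 16496804 to 17218044 counts per library, and each library detected between 16438 and 17680 genes. The transcript of the delivered cytokine, Ifng, summed to 4 counts in Control and 10 in Model, against 97 with LNPIFN-Y and 89 with ptLNPIFN-Y. All 27 tested genes of an interferon-γ response list were higher in each particle group than in Model (edgeR quasi-likelihood test, adjusted p under 0.05), with a median log2 fold change of 3.73 in LNPIFN-Y and 4.02 in ptLNPIFN-Y. Against this stood medians over all tested genes of -0.03 and -0.05, and shares called higher of 5.25% and 6.05%.

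Cngb3 was all but silent in ovaries without interferon-γ particles and was counted in every particle library. The 5 Control libraries held 1, 1, 0, 0 and 1 counts, in the order of their replicate numbers. The Model libraries held 0, 0, 0, 0 and 1. In these 10 libraries together there were 4 Cngb3 counts, and no library had more than 1.

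The LNPIFN-Y libraries held 126, 17, 11, 32 and 31 Cngb3 counts, 217 in all. The ptLNPIFN-Y libraries held 106, 139, 10, 32 and 167, which sum to 454. Every particle library lay above every Model and Control library, and the lowest particle library, with 10 counts, was ptLNPIFN-Y 3. Of 15723 tested genes, 681 had every LNPIFN-Y library above every Model library and 760 every ptLNPIFN-Y library, and against Control these were 2050 and 1740. By the edgeR test, 5.25% of all tested genes were called higher in LNPIFN-Y than in Model and 0.566% lower, and 6.05% and 0.948% in ptLNPIFN-Y, and since Cngb3 was chosen on these contrasts nothing is read from its place among them.

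In CPM, the usual measure of counts scaled to library size, the mean Cngb3 level was 0.0113 ± 0.0253 (SD, n = 5) in Model and 0.0345 ± 0.0316 (SD, n = 5) in Control. It was 2.76 ± 3.09 (SD, n = 5) in LNPIFN-Y and 5.81 ± 4.45 (SD, n = 5) in ptLNPIFN-Y. The order of the levels was thus Model, Control, LNPIFN-Y, ptLNPIFN-Y. The values of Model and Control overlapped, as did those of the 2 particle groups, while the step between Control and LNPIFN-Y held no overlap.

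Per unit of depth, summed Cngb3 counts were 217 times those of Model in LNPIFN-Y, with an exact 95% counting interval from 38.5 to 8601, and 457 times in ptLNPIFN-Y, with an interval from 81.6 to 18077. Without LNPIFN-Y 1, which held 126 of the 217 counts, the first ratio was 114. The width of the intervals comes from the single Model count, in Model 5. Without that library the Model sum is 0, and against a floor of 3 counts over the group the level was at least 57.8-fold higher in LNPIFN-Y and at least 121.7-fold higher in ptLNPIFN-Y. Against Control, which had 3 counts, the ratio was 72.1 (24.3 to 352) in LNPIFN-Y and 152 (51.6 to 739) in ptLNPIFN-Y. These intervals cover counting error only, not the spread between libraries. The ratio of Model to Control was 0.332, with an interval from 0.00633 to 4.14. Cngb3 was chosen for its low Model counts, so no conclusion on Model against Control is drawn from this ratio.

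**Figure D1:**
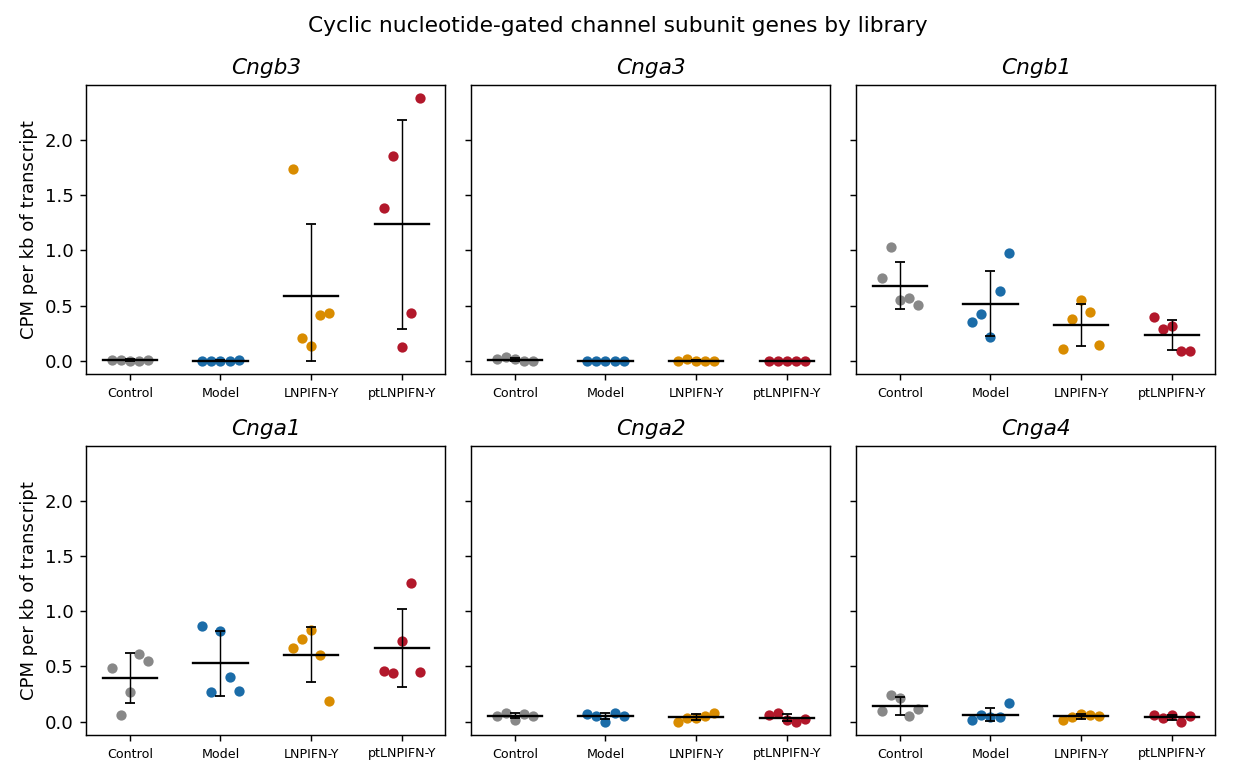
Level of each cyclic nucleotide-gated channel subunit gene in each of the 20 libraries, in CPM per kb of transcript length, by group. Points are libraries in replicate order from left to right, thick lines are group means and bars are 1 SD (drawn no lower than 0), n = 5. Cngb3 stands off 0 in the particle groups, with means of 0.585 and 1.23, while Cnga3 stays at the bottom of the axis in all groups.

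The partner subunit gene was at or near 0 in every group. Cnga3 had 1, 2, 1, 0 and 0 counts in the Control libraries. It had 0 in all 5 Model libraries, 0, 1, 0, 0 and 0 in LNPIFN-Y, and 0 in all 5 ptLNPIFN-Y libraries. In ptLNPIFN-Y a count of 0 allows a level of up to 0.0357 CPM, for counting error only, set against the mean of 5.81 CPM for Cngb3 in the same libraries.

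Cnga3 was too low to enter the fit across all genes, so its CPM was compared by exact two-sided permutation tests. The difference of Model from Control was -0.0462 CPM (p = 0.167, exact permutation), which does not pass. With counts in only 3 Control libraries and none in Model, no smaller p was possible. The comparisons of LNPIFN-Y with Model, ptLNPIFN-Y with Model and ptLNPIFN-Y with LNPIFN-Y each gave p = 1 by the same exact permutation test. The smallest p that 5 libraries against 5 allow is 0.00794, but only where enough libraries hold counts. In these last comparisons at most 1 library held a count, so their outcome was fixed in advance. No conclusion on a change of Cnga3 is drawn from these tests.

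Among the other A subunits, Cnga1, of the rod channel, was counted in all libraries. Its mean was 1.49 CPM in Model, 1.71 with LNPIFN-Y and 1.88 with ptLNPIFN-Y. The log2 fold change from Model was 0.20 ± 0.52 (SE) in LNPIFN-Y and 0.34 ± 0.52 in ptLNPIFN-Y, with edgeR adjusted p values of 0.865 and 0.705. Per kb of transcript, the mean level in ptLNPIFN-Y was 0.668 CPM per kb for Cnga1 and 1.23 CPM per kb for Cngb3, and the libraries of the 2 genes overlapped. In Model the order of levels was the other way round, at 0.527 CPM per kb for Cnga1 and 0.0024 CPM per kb for Cngb3.

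The other B subunit gene, Cngb1, had its lower means in the particle groups. It was counted 43, 51, 25, 83 and 121 times in the Model libraries. The counts were 12, 46, 68, 51 and 15 in LNPIFN-Y and 45, 32, 37, 10 and 9 in ptLNPIFN-Y, so the groups overlapped. Its log2 fold change from Model was -0.67 ± 0.51 (SE) in LNPIFN-Y and -1.14 ± 0.51 in ptLNPIFN-Y, and neither passed the test (edgeR adjusted p = 0.501 and 0.200).

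The olfactory subunits were near the detection limit. Over the 5 libraries of a group, Cnga2 summed to 15 counts in Control and in Model, then to 11 with LNPIFN-Y and 9 with ptLNPIFN-Y. Cnga4 summed to 51, 23, 16 and 13 in the order Control, Model, LNPIFN-Y, ptLNPIFN-Y. Neither passed the filter on low counts, so no fold change was tested. Of the 5 subunit genes other than Cngb3, 2 entered the fit and 0 passed against Model in either particle group in edgeR.

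The particle groups were then compared with each other, a contrast that played no part in choosing Cngb3. The mean level was 3.05 CPM higher in ptLNPIFN-Y than in LNPIFN-Y, and the log2 fold change was 1.08 ± 0.73 (SE). The difference did not pass the test: the unadjusted p was 0.160 and the adjusted p was 1 in edgeR, and the exact two-sided permutation test of the CPM gave p = 0.270. No gene of 15723 passed in this contrast (0% called in edgeR, 0 in DESeq2), and 481 had an unadjusted p under 0.05. The ratio of summed counts, 2.11 with a counting interval from 1.79 to 2.49, holds no spread between libraries, and that spread was wide. The biological coefficient of variation fitted for Cngb3 was 0.876, against a median of 0.260 over all tested genes.

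How other genes compare on the pattern that chose Cngb3 is given as a description. Of 3322 genes with at most 3 counts over the 5 Model libraries, Cngb3 was the 1 that reached 100 counts in each particle group, and 3 genes reached 50, 7 reached 30 and 12 reached 20, Cngb3 among them. Just outside the limit of 100 lay Btnl4, a butyrophilin-like gene, with 2 counts in Model, 68 with LNPIFN-Y and 149 with ptLNPIFN-Y. With up to 10 Model counts allowed, Ido1, the interferon-inducible enzyme that breaks down tryptophan, went from 5 to 353 and 623, and Il27, a cytokine subunit gene of myeloid cells, from 10 to 121 and 154. Mup18, a major urinary protein gene of a family with near-identical copies, met that wider rule with 5, 126 and 312, and its reads may be split among copies. It also had 57 counts in Control, whereas Cngb3 had 3.

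**Figure D2:**
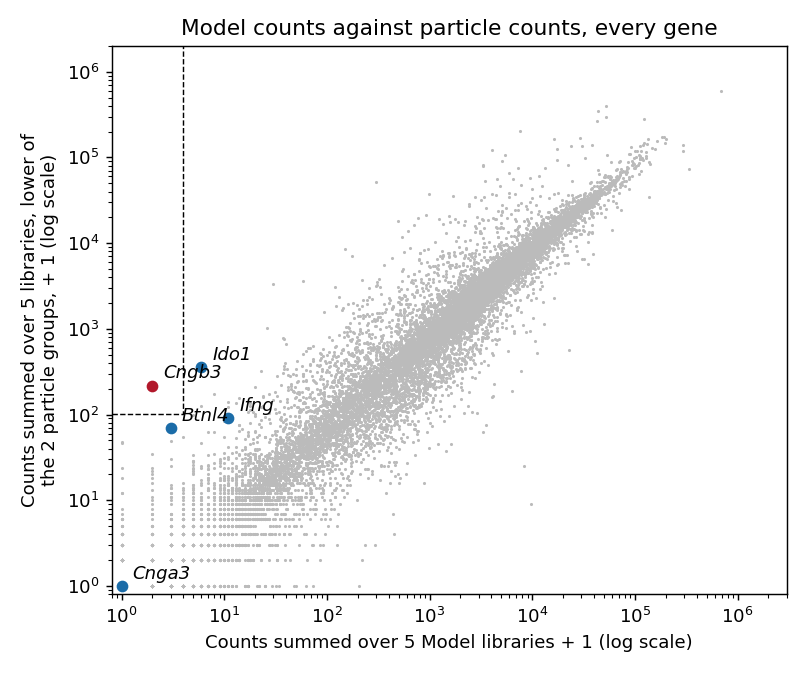
Counts of every gene summed over the 5 Model libraries (horizontal axis, log scale) against the lower of its sums over the 5 LNPIFN-Y and the 5 ptLNPIFN-Y libraries (vertical axis, log scale), each with 1 added. The dashed lines enclose genes with at most 3 Model counts and at least 100 counts in each particle group. Cngb3, with 1 and 217, is alone inside them, Btnl4 and Ifng lie below, and Ido1 lies to the right.

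Cngb3 lies on the plus strand of chromosome 4 in GRCm38, from 19280850 to 19510623. The locus spans 229.8 kb, and its 1 GENCODE transcript has 18 exons with 4708 bases. A processed pseudogene, Gm11877, sits inside intron 2 on the same strand and touches no exon of Cngb3. Cnga3 lies on the plus strand of chromosome 1, from 37218241 to 37263384, with a transcript length of 3869 bases. The table gives counts per gene, so which exons the Cngb3 reads covered was not analysed here.

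No tested gene beside Cngb3 passed the test. The nearest on the right, Cpne3, a calcium-dependent membrane-binding copine on the opposite strand, begins 8.6 kb away. Its mean was 111 CPM in Model, 128 with LNPIFN-Y and 124 with ptLNPIFN-Y, with log2 fold changes of 0.21 ± 0.08 (SE) and 0.17 ± 0.08 and edgeR adjusted p values of 0.140 and 0.205. The nearest on the left, Cnbd1, which encodes a protein with a cyclic nucleotide-binding domain, lies 158.3 kb away and had 0 or 1 count in every library.

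Further out, Rmdn1 and Wwp1, a ubiquitin ligase gene, had log2 fold changes from -0.05 to -0.40. Mmp16, a membrane-bound matrix metalloproteinase gene, had -0.31 ± 0.37 (SE) in LNPIFN-Y and -1.14 ± 0.38 in ptLNPIFN-Y. Ripk2, the kinase that signals from the NOD receptors, had 0.70 ± 0.26 and 0.75 ± 0.26. None of the 5 tested neighbours passed in edgeR in either particle group, and their adjusted p values ran down to 0.0826.

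**Figure D3:**
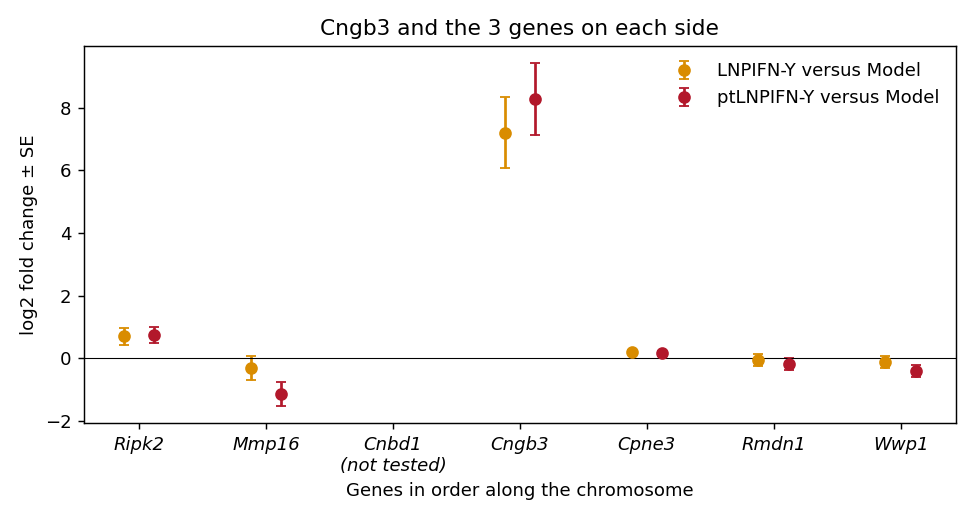
Log2 fold change from Model, with its SE as bars, for Cngb3 and the 3 table genes on each side in chromosome order, in LNPIFN-Y and ptLNPIFN-Y. Cngb3, drawn as a description since these contrasts chose it, lies above 7 in both groups, and each tested neighbour lies between -1.14 and 0.75.

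Of the 3 genes on each side of Cnga3, 2 passed the test in one or both particle groups. Zap70, the kinase that relays the T cell receptor signal, lies 435.4 kb to the left and rose by 1.16 ± 0.29 (SE) in LNPIFN-Y and 1.55 ± 0.30 in ptLNPIFN-Y on the log2 scale, with edgeR adjusted p values of 0.0211 and 0.00202. In LNPIFN-Y that call was lost in 5 of 16 alternative fits, with adjusted p values of 0.0560 to 0.0743. Coa5, a cytochrome c oxidase assembly gene, rose by 0.61 ± 0.15 in ptLNPIFN-Y (edgeR adjusted p = 0.0173), and lost the call in 6 of 16 fits with adjusted p values of 0.0520 to 0.0793. Beside Zap70, 12 of 14 T cell marker genes were higher than in Model in each particle group. Over all tested genes, 5.25% were called higher in LNPIFN-Y and 6.05% in ptLNPIFN-Y. The part of T cells in the level of Zap70 was not tested.

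Genes of the photoreceptor machinery other than the channel subunits were counted next. Of 31 phototransduction and photoreceptor genes in the table, 14 were high enough to test, and 1 was called higher in each particle group, a share near the 5.25% and 6.05% over all tested genes. The medians of the log2 fold change were -0.14 in LNPIFN-Y and -0.10 in ptLNPIFN-Y. Most of the list's summed level came from Gnb1, a G protein β subunit gene found in most cells, with a mean of 351 CPM in Model. Without Gnb1, the other 30 genes summed to 50.9 to 68.9 CPM across the Control libraries and 56.4 to 93.5 across the Model libraries. With LNPIFN-Y the sum was 72.3 to 83.6 CPM and with ptLNPIFN-Y 57.8 to 109 CPM, so the groups overlapped with Model. The genes that define cones and rods stayed at or near 0 in all groups. Crx, the photoreceptor transcription factor, had 1 count over all 20 libraries, in LNPIFN-Y. Arr3, cone arrestin, had between 1 and 3 counts per group, and Pde6c, the cone phosphodiesterase, had 1 count in Control and none elsewhere.

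The member that was called was Gngt2, a transducin γ subunit gene of cones. Its mean was 5.40 CPM in Model, 13.0 with LNPIFN-Y and 12.0 with ptLNPIFN-Y. The log2 fold changes were 1.26 ± 0.30 (SE) and 1.15 ± 0.30, with edgeR adjusted p values of 0.0131 and 0.0216. The call was lost in 5 of 16 alternative fits in LNPIFN-Y, at adjusted p values of 0.0501 to 0.0678, and in 9 of 16 in ptLNPIFN-Y, at 0.0509 to 0.0805. Unlike Cngb3, Gngt2 was well counted in Model, with 468 counts.

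Next came genes that make, break down or answer to cyclic GMP, the ligand of the channel. Of 21 tested genes for guanylyl cyclases, nitric oxide synthases, phosphodiesterases and cyclic GMP-dependent kinases, 0 passed in either particle group in edgeR, with median log2 fold changes of -0.19 and -0.26. Pde9a, a cyclic GMP-specific phosphodiesterase gene, had -1.90 ± 0.76 (SE) in LNPIFN-Y and Prkg1, a cyclic GMP-dependent kinase gene, had -1.08 ± 0.36 in ptLNPIFN-Y. DESeq2 called 2 of the 21 in ptLNPIFN-Y. Among the HCN and related channels with a cyclic nucleotide-binding domain, 0 of 10 tested genes passed in edgeR, with medians of -0.45 and -0.63, and DESeq2 called 1 in LNPIFN-Y. Over all tested genes, 5.25% and 6.05% were called higher in LNPIFN-Y and ptLNPIFN-Y, and 0.566% and 0.948% lower. By calls, a count of 0 in lists of 21 and 10 genes therefore sets neither list apart. Fold changes above 0 were held by 9 and 7 of the 21 genes, and by 1 and 2 of the 10. The medians over all tested genes were -0.03 and -0.05, and the lean of the 2 lists to lower values was not tested. Across all tested genes, 2936 had an unadjusted p under 0.05 in LNPIFN-Y and 3516 in ptLNPIFN-Y.

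Within the particle libraries Cngb3 varied 18.6-fold in CPM, from 0.603 in ptLNPIFN-Y 3 to 11.2 in ptLNPIFN-Y 5. To see what varied with it, each group's mean was subtracted from log2 CPM. Tested genes, apart from those with clone-type names (Rik, Gm, LOC) or a repeated symbol, were ranked by correlation with Cngb3 over the 10 libraries. Closest was C9orf72, the mouse version of a gene mutated in amyotrophic lateral sclerosis (Pearson r = 0.986, Spearman rho = 0.976). Next came Sgcd, a sarcoglycan gene (0.980 and 0.927), and Abhd15, a regulator of fat breakdown in adipocytes (0.978 and 0.976). Ffar2, a receptor for short-chain fatty acids, Apoc1, an apolipoprotein gene, Ehd2 and Cav1, both of caveolae, and Lifr, the leukemia inhibitory factor receptor gene, had r between 0.974 and 0.977. With r of at least 0.9 there were 203 of 15049 genes, and with r of at most -0.9 there were 2. The choice of the first 8 was loose, since leaving out a library kept 2 to 6 of them, and ranking by rho kept 1.

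**Figure D4:**
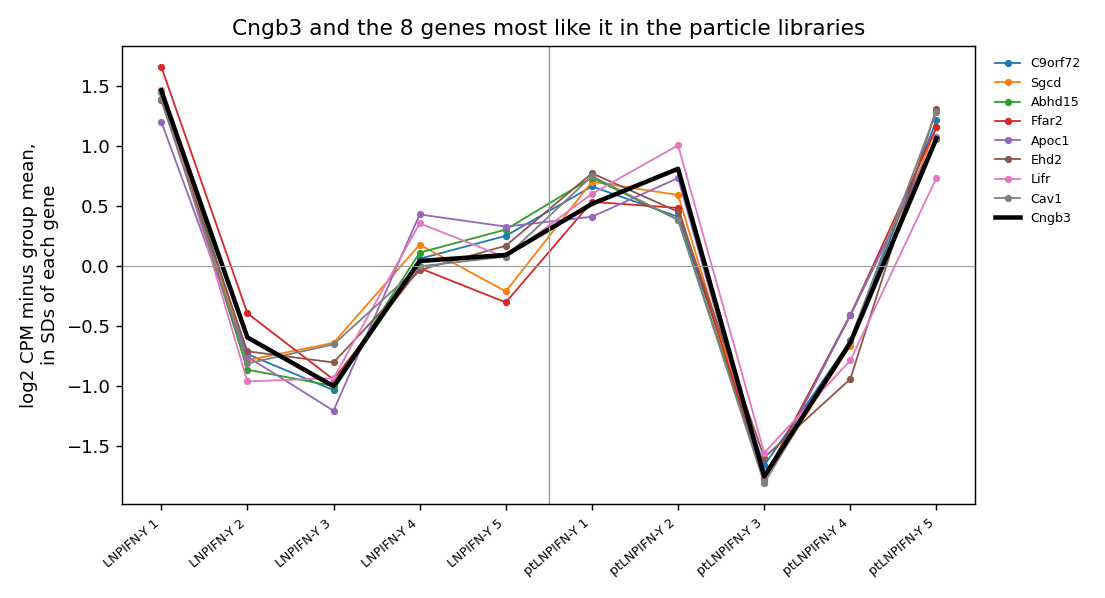
Log2 CPM of Cngb3 (thick black line) and of the 8 ranked genes with the highest Pearson r with it, in the 10 particle libraries. Values are the difference from the group mean in SDs of each gene. All the genes are high in LNPIFN-Y 1 and ptLNPIFN-Y 5 and lowest in ptLNPIFN-Y 3. The lines join libraries for reading only.

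These genes differed from Cngb3 in being expressed without particles. Cav1 had a mean of 400 CPM in Control and 304 in Model, and of 428 with LNPIFN-Y and 589 with ptLNPIFN-Y. The means of C9orf72 lay between 37.0 CPM, in Model, and 57.0 CPM, in ptLNPIFN-Y. Of the 8, 0 passed against Model in LNPIFN-Y in edgeR. Apoc1 and Ffar2 passed in ptLNPIFN-Y, with log2 fold changes of 2.25 ± 0.61 (SE, edgeR adjusted p = 0.0307) and 2.10 ± 0.62 (edgeR adjusted p = 0.0494). Both lost the call without ptLNPIFN-Y 2, without ptLNPIFN-Y 5 and in other fits, in 8 of 16 for Apoc1, with adjusted p values of up to 0.101, and in 12 of 16 for Ffar2, with values of up to 0.161.

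Over all 20 libraries, where the step between the groups dominates, other genes led. By Spearman rho these were Apol6 (0.948), an apolipoprotein L gene, Npc2 (0.938), a lysosomal cholesterol carrier, Ly6c1 (0.936) and Plbd1 (0.933), a phospholipase-like gene. They were followed by Scly (0.930), selenocysteine lyase, Rmdn3 (0.930), Slc28a2 (0.926), a nucleoside transporter, and Pcgf5 (0.924), a Polycomb gene. No gene was in both lists of 8. In ptLNPIFN-Y all 8 were higher than in Model, and in LNPIFN-Y 7 of 8 were, without Rmdn3, at adjusted p under 0.05 in edgeR. They were taken for likeness to a gene chosen on those contrasts, so the counts describe them only. None was silent in Model: the lowest, Slc28a2, had a mean of 3.98 CPM there.

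Among 19 lists of cell type and pathway genes, the adipocyte list followed Cngb3 most closely in the particle libraries. Its 8 genes include Adipoq, which encodes adiponectin, and Plin1, which encodes the coat protein of fat droplets. The mean log2 CPM of the list had Pearson r = 0.929 with Cngb3 over the 10 libraries after group means were subtracted (p = 0.00174, exact permutation within groups, 0.0330 adjusted over the 19 lists). Spearman rho was 0.867 (p = 0.00326, exact permutation), and its adjusted p of 0.0620 misses the threshold. Without ptLNPIFN-Y 3 and ptLNPIFN-Y 5, the 2 libraries farthest from the median, r was 0.859 (p = 0.0236, exact permutation). The macrophage and monocyte list had r = 0.758 (p = 0.0163, exact permutation, adjusted 0.155), the NK and cytotoxic list 0.731 (p = 0.0297, exact permutation, adjusted 0.188) and the interferon-γ response list 0.607 (p = 0.0749, exact permutation), and none of the 3 passed after adjustment. On the negative side, the phototransduction and photoreceptor list had r = -0.689 (p = 0.0510, exact permutation, adjusted 0.242) and the oviduct epithelium list r = -0.632 (p = 0.0767, exact permutation, adjusted 0.243).

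Adipocyte transcripts varied within every group, and no member was at 0 in any library. Summed over the 8 genes, they spanned 1195 to 8086 CPM across the Control libraries and 1012 to 2589 across the Model libraries. The span was 970 to 8589 CPM with LNPIFN-Y and 709 to 18185 with ptLNPIFN-Y. None of the 8 passed in edgeR in either particle group against Model, although the median log2 fold change was 0.72 in LNPIFN-Y and 1.85 in ptLNPIFN-Y. DESeq2 called 4 of them in ptLNPIFN-Y. In bulk tissue, more cells of a type and more RNA per cell cannot be told apart.

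The 2 measures stood side by side as follows. Control 2 and Control 5 had 8086 and 7052 CPM of adipocyte transcripts and 1 Cngb3 count each. LNPIFN-Y 1 had 8589 CPM and 126 Cngb3 counts, and ptLNPIFN-Y 2 had 5203 CPM and 139. The lowest adipocyte level, 709 CPM, was in ptLNPIFN-Y 3, which had 10 Cngb3 counts. Per 1000 CPM of adipocyte transcripts, Cngb3 lay between 0.522 and 1.67 CPM in the 10 particle libraries, a 3.21-fold range. The same ratio was at most 0.0456 CPM in Control and 0.0442 in Model. Between the particle groups the ratio had a mean of 0.895 ± 0.445 (SD, n = 5) in ptLNPIFN-Y and 0.912 ± 0.383 (SD, n = 5) in LNPIFN-Y. That difference did not pass the exact permutation test (p = 0.944). With the adipocyte list mean as a covariate, an alternative chosen after seeing the data, the log2 fold change between the particle groups was 0.03 in place of 1.08, and neither value passed the test. Beyond the correlation and the comparison of the particle groups, the part of adipocyte content in the level of Cngb3 was not tested. The counts of Cngb3 against Model and Control are those that chose it. The cells in which Cngb3 was transcribed were not measured.

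**Figure D5:**
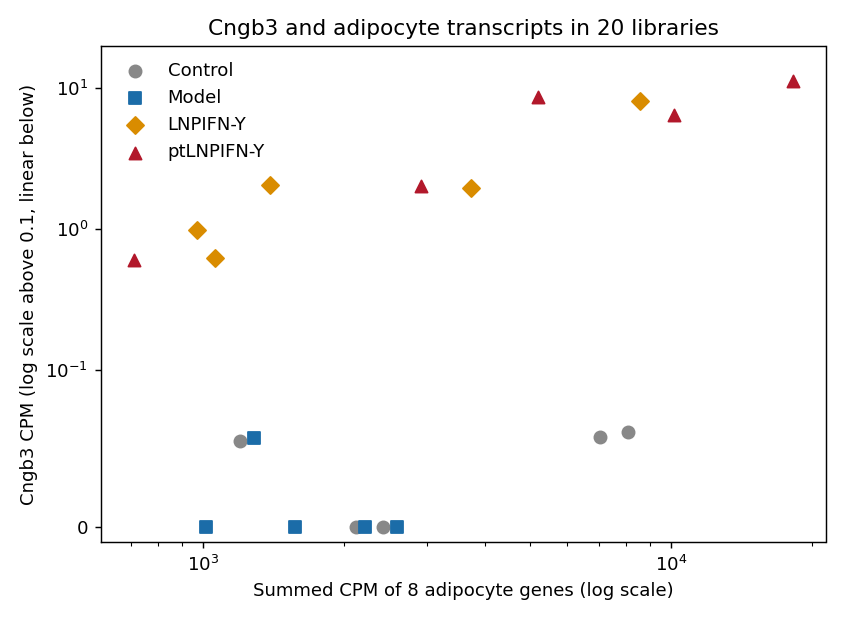
Cngb3 level in CPM (vertical axis, logarithmic above 0.1 and linear below) against the summed CPM of 8 adipocyte genes (horizontal axis, log scale) in 20 libraries, by group. The 10 particle libraries rise from 0.603 to 11.2 CPM of Cngb3 along the axis, while the 10 Control and Model libraries stay at or below 0.0607 CPM, the 2 Control libraries at 7052 and 8086 CPM of adipocyte transcripts included.

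Markers of some immune cells were higher in the particle groups as well. Higher than Model were 11 of 11 NK and cytotoxic genes in each particle group, and 10 of 14 macrophage and monocyte genes in LNPIFN-Y and 8 of 14 in ptLNPIFN-Y. Over all tested genes the shares called higher were 5.25% in LNPIFN-Y and 6.05% in ptLNPIFN-Y. Of 7 tested neutrophil genes, 1 was higher in each group. Of 9 B and plasma cell genes, 0 were higher in LNPIFN-Y and 4 in ptLNPIFN-Y. Of 10 dendritic cell genes, 4 were higher in LNPIFN-Y and 6 in ptLNPIFN-Y, and 1 was lower in each. The macrophage and monocyte list summed to between 335 and 1222 CPM in Model, between 1238 and 3848 in LNPIFN-Y, and between 1448 and 2980 in ptLNPIFN-Y. Beyond the correlations with the lists, the part of immune cells in the level of Cngb3 was not tested.

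The RefSeq promoter table, built on GRCm38.p6, had no entry for Cngb3. It holds 2 windows for Cnga3, each with 250 bases before and 50 after a start. On either strand, neither held a match to the interferon-γ-activated site TTCNNNGAA, found in 8.298% of the 32851 promoters searched. Neither held the stricter form TTCCNGGAA, which is contained in the first and was found in 1.148%. A chromosome of the table was left out of the search.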

How the data were processed

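Oligo(dT)-captured RNA of mouse ovary was read on the DNBSEQ platform (20 libraries, 5 per group), all under batch label 1. Per the submitters' processing notes, HISAT2, StringTie, RSEM and DESeq2 were used with GRCm38.p6, with no versions or strand setting given in the sources used here. The authors deposited expected counts per gene, 9.85% of which carry decimals. One emptied line was left out, and 26 symbols turned into dates were restored by gene ID.

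The expected counts, as deposited, were rounded and fitted in R 4.3.3 with edgeR 4.0.16: filterByExpr with a minimum count of 10 (15723 genes kept), TMM scaling, and 1 quasi-likelihood model over 20 libraries. Benjamini-Hochberg adjusted p values run over every gene kept, with a threshold of 0.05. The SE is the log2 fold change divided by the root of F. CPM uses TMM-scaled library sizes, and log2 CPM a prior count of 2. The fit was tested on simulated data. DESeq2 1.42.0, other scaling, no filter, the 2 groups alone, the replicate number as a block and leaving out each library were the alternatives.

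Genes named are the 6 subunits, Ifng, 3 neighbours on each side of both genes, members of the pathway lists past the test, the 8 genes most like Cngb3 by each measure, and genes silent in Model; Crx, Arr3, Pde6c, Gnb1, Pde9a, Prkg1, Adipoq and Plin1 were named after their values were seen. The members and lists were chosen with earlier results of these data known.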

Additional observations from a re-analysis of the deposited data

Results flagged for a closer look

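Within groups of 5, a library whose gap to its nearest neighbour took up more of the group's range than Dixon's 95% critical value was noted. For normally distributed values chance alone does so in about 1 in 20 groups, a rate that does not hold for counts near 0. In all, 24 groups (6 subunit genes in 4 groups) were looked at. Cngb3 in LNPIFN-Y 1 stood at 8.17 CPM, from 126 counts, with the gap taking 0.811 of the range, and that library also had the highest summed adipocyte level of its group. Without it, the ratio of summed Cngb3 counts in LNPIFN-Y to Model was 114. The others rest on few counts: Cngb3 in Model 5 at 0.0566 CPM, from 1 count, Cnga3 in LNPIFN-Y 2 at 0.0582 CPM, from 1 count, and Cnga4 in Model 5 at 0.679 CPM, from 12 counts. A single count among zeros always meets the rule, so nothing is read from the first 2 of these.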

How the results depend on the processing

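The difference of Cngb3 between ptLNPIFN-Y and LNPIFN-Y kept its direction and did not pass the test in all 16 alternatives run, including the replicate block (log2 fold change 0.92). Leaving out a library gave 0.67 to 2.05. The ratio of summed Cngb3 counts to Model spanned 57.8 to 257 with LNPIFN-Y and 121.7 to 556 with ptLNPIFN-Y on leaving out a library, the lowest values being lower bounds without Model 5. The correlation with the adipocyte list ranged from 0.873 to 0.954. Replicate numbers did not pair the samples: correlations of same-numbered deviations ran from -0.698 to 0.76, and 5 of 20 samples correlated best with their own number.

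Counts over all genes were less stable, and the cause was not tested. DESeq2 called 29 genes in Model against Control, where edgeR called 0 (772 at an unadjusted p under 0.05). In LNPIFN-Y the 825 higher genes became 543 with the 2 groups alone, and 595 to 1243 on leaving out a library. The 89 lower ones became 33 with the replicate block, 8 with the 2 groups alone, 488 in DESeq2, and 29 to 486 on leaving out a library. In ptLNPIFN-Y the 951 higher genes became 713 to 1579 on leaving out a library. The 149 lower ones became 79 with the block, 44 with the 2 groups alone, 89 with the adipocyte covariate, 621 in DESeq2, and 51 to 684 on leaving out a library. The 8 genes most like Cngb3 kept 1 under Spearman rho and 2 to 6 on leaving out a library. Cnga3 could be fitted only without the low-count filter, where no comparison passed, and in DESeq2. DESeq2 gave it an adjusted p only for ptLNPIFN-Y against LNPIFN-Y, which did not pass.

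Cngb3 sums to 675 counts over 20 libraries, 4 of them outside the particle groups, so its level there is known only to the order of 1 count per library.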
